A study of Mus musculus with 9 samples.

Results

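The 10 genes described here are early response genes, listed by symbol as EGR, NR4A and related genes: Egr1, Egr2, Egr3, Nr4a1, Nr4a2, Ier2, Ier3, Dusp1, Dusp2 and Zfp36. All 10 had a probeset that the array's annotation ties to exactly 1 symbol, and they stand among 30142 genes measured in that way. Where a gene had several probesets, the brightest by its mean over the 9 arrays was taken, which concerned Egr3 with 3 probesets. Signals were measured on Affymetrix whole-transcript arrays in LSK cells, the lineage-negative, Sca-1-positive, c-Kit-positive fraction of bone marrow that holds the haematopoietic stem cells and earliest progenitors. The 4 KO mice were Abi1(-/-);Tg(Mx1-cre(+)), with deletion of floxed Abi1, and the 5 WT mice were Abi1(fl/fl);Tg(Mx1-cre(-)), with intact floxed alleles and no Cre. Mice of both groups were given 3 poly(I:C) injections at 8 to 9 weeks, which induces the Mx1 promoter, and marrow was taken at 12 to 14 weeks, with 1 mouse per array and 5 ng of RNA amplified for each. The cells were lineage-depleted, stained, sorted and frozen before RNA was purified. Cre was present only in KO mice, so its own effect cannot be told apart from that of losing Abi1, and Mx1-Cre acts in many cell types besides LSK cells.

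Early response genes are transcribed within minutes of a stimulus from promoters that are already poised, without new protein synthesis. Growth factors, stress and inflammatory signals reach them through MAP kinases, which act on the serum response factor SRF with its ETS partners and on CREB. The EGR zinc finger proteins and the NR4A orphan nuclear receptors are the transcription factors of this first wave, while DUSP phosphatases, ZFP36 and IER proteins curb or modify the signal that induced them. The same genes are known to respond when tissue is dissociated and cells are stained and sorted.

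The promoters of 7 members were in the RefSeq table of assembly GRCm38.p6: Egr2, Nr4a1, Nr4a2, Ier3, Dusp1, Dusp2 and Zfp36. Windows from 250 bases before to 50 after each start were searched on both strands for the CArG box, which SRF binds, for the full CREB site TGACGTCA and its first part TGACG, which the full site contains on both strands, for the NF-kappaB site, and for GCGTGGGCG, the EGR site. GGGCGG, a site of SP factors, and TATAAA were searched as well. Shown here are the 250 bases before the start for the members with the clearest examples, with CArG box, TGACG and NF-kappaB matches in capitals. Of Egr2, which has 5 annotated starts, only 30 bases upstream of start 3 are shown, at chr10:67537793-67537822, plus strand.
Nr4a1 (chr15:101266596-101266845, plus strand): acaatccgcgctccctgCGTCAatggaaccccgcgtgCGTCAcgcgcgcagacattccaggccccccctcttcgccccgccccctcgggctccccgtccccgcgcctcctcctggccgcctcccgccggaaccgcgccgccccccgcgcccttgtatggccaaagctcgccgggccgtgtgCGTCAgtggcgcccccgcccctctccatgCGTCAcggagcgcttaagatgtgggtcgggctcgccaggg
Dusp1 (chr17:26508473-26508722, minus strand): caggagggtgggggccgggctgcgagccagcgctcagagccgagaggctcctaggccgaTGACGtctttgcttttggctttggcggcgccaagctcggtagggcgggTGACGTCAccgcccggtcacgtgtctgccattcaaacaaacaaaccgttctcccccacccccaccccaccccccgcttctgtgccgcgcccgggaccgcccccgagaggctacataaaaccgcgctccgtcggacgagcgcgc
Zfp36 (chr7:28379229-28379478, minus strand): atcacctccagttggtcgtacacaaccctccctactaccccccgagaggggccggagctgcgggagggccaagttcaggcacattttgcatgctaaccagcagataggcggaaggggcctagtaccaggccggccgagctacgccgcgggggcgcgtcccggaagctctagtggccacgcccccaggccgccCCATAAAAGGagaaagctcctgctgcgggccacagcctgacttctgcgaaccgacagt
Ier3 (chr17:35821463-35821712, plus strand): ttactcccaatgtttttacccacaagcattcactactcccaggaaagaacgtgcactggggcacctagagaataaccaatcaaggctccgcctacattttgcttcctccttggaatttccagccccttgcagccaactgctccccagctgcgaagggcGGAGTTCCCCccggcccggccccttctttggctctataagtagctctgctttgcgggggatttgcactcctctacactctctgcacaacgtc
Egr2: cagtCCATATATGGgcagcgaCGTCAcggg

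The Nr4a1 window held TGACG 4 times, each on the reverse strand, and the Dusp1 window held the full TGACGTCA at positions -143 to -136 from the start. The CArG box was present before Zfp36, at positions -58 to -49, and before Egr2, at positions -72 to -63 from start 3. Among the 7 members with a promoter, 5 held TGACG in at least 1 window, 2 the CArG box, 2 the NF-kappaB site (Ier3 and Nr4a1), 1 the full CREB site and 0 the EGR site. The Nr4a1 match to the NF-kappaB site lies across the start and is not in the stretch shown. Over the promoters of all 27025 genes in the table, 23.0% of genes held TGACG, 1.81% the CArG box, 5.14% the NF-kappaB site, 2.03% the full CREB site and 0.707% the EGR site in at least 1 window. GGGCGG was held by 7 of the 7 members, against 38.2% of genes, and TATAAA by 1, against 15.7%. These shares were not matched for base composition or number of starts. A match describes these letters and not a site in use.

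Signals are given as deposited, on what their range of 1.84 to 19.45 implies is a log2 scale, and signals of different genes are not compared because probesets differ in brightness. The background level of an array was taken from 1528 genes for odorant and pheromone receptors, as their percentile 95, and was 5.29 to 5.61. Abi1 had log2 signals of 6.11, 5.82, 5.59 and 5.76 in KO, against 11.65, 11.49, 11.50, 11.56 and 11.53 in WT, so all 9 arrays matched their labels. Of 16 LSK-defining genes 12 were measured, and all 12 were above background. Across genes, the median correlation of an array with the others was 0.9858 for KO replicate 1 and 0.9893 for WT replicate 5, and 0.9931 to 0.9956 for the other 7, among them WT replicates 2 and 3 at 0.9948 and 0.9947. KO replicate 1 also had the highest background, and WT replicate 5 the highest median of negative control probesets, 6.89 against 6.20 to 6.47. Results that rest on these arrays are given without them.

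By this measure 9 of the 10 genes were above background in every array of both genotypes and Ier3 in 8 of 9. Against the median of negative control probesets the same 9 were above in every array, but Ier3 in only 1, KO replicate 2, and in 0 WT arrays. Most of them had their lowest signals in WT replicates 2 and 3, while the other 3 WT arrays mostly lay among the KO arrays. These 2 arrays were the lowest of all 9 for 8 of the 10 genes, against 2.93% of the 16151 genes whose mean was above background. The 2 arrays were noticed by their low values in these same genes, which vary together, so the count is a description and not a test. None of the 10 passed an adjusted p of 0.05 between KO and WT, and Ier2 and Ier3 had the smallest unadjusted p.

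**Figure D1:**
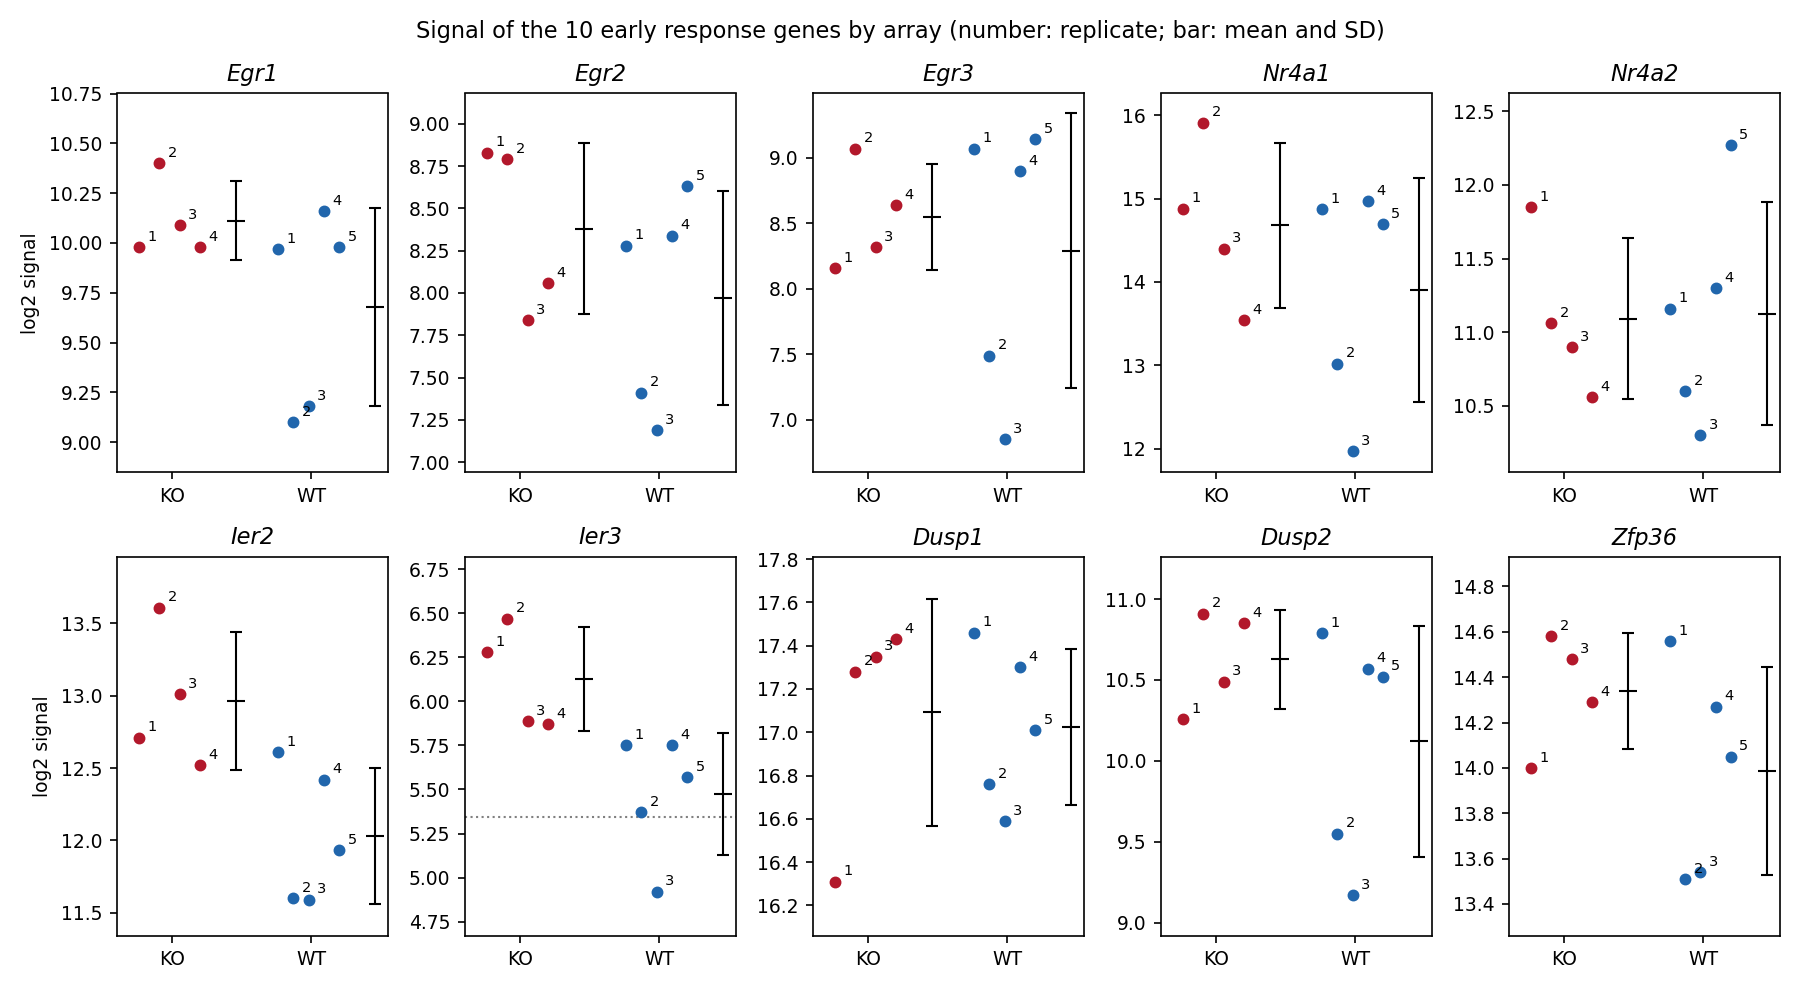
Log2 signal (vertical axes, each panel on its own range) of the 10 early response genes in 4 KO (red) and 5 WT (blue) arrays. Points are arrays with their replicate numbers, bars give the mean and SD, and the dotted line in the Ier3 panel is the mean background level over the 9 arrays. WT replicates 2 and 3 lie below the other 7 arrays in 8 panels, and Nr4a2 and Dusp1 are the exceptions.

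Egr1, the zinc finger factor that is the classic readout of ERK signalling, had log2 signals of 9.98, 10.40, 10.09 and 9.98 in KO, against 9.97, 9.10, 9.18, 10.16 and 9.98 in WT, here and below in the order of the replicate numbers. WT replicates 2 and 3 lay 0.79 or more below every other array, and the remaining WT arrays overlapped the KO range. The difference in mean log2 signal was 0.43 (SE 0.25, limma adjusted p = 0.786, exact permutation p = 0.214).

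Egr2, which shapes lymphoid and myeloid differentiation, had log2 signals of 8.83, 8.79, 7.84 and 8.06 in KO, against 8.28, 7.41, 7.19, 8.34 and 8.63 in WT. KO replicates 1 and 2 were the highest and WT replicates 2 and 3 the lowest, with the groups overlapping between. The difference was 0.41 (SE 0.36, limma adjusted p = 0.786) and became -0.037 without WT replicates 2 and 3.

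Egr3, a close relative of Egr2 that is induced in activated lymphocytes, had log2 signals of 8.16, 9.07, 8.32 and 8.64 in KO, against 9.07, 7.49, 6.85, 8.90 and 9.14 in WT on its brightest probeset. The WT arrays covered the whole range of 2.29, and every KO array lay inside it. The difference of 0.26 (SE 0.51, limma adjusted p = 0.875) became -0.10 without WT replicate 3 and -0.49 without WT replicates 2 and 3. The brightest probeset is marked as unmapped by its identifier. The mapped one had 8.86, 8.54, 7.80 and 7.87 in KO, against 8.09, 7.09, 6.85, 8.02 and 8.24 in WT, a larger difference of 0.61 (exact permutation p = 0.183), and had WT replicates 2 and 3 lowest as well. The last probeset, unmapped too, had 6.77, 7.57, 5.81 and 5.70 in KO, against 5.63, 5.36, 5.42, 5.29 and 6.15 in WT (exact permutation p = 0.0714).

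Nr4a1 encodes Nur77, an orphan receptor that restrains proliferation of stem cells and marks recent antigen or cytokine signals in lymphocytes. Its log2 signals were 14.88, 15.91, 14.40 and 13.54 in KO, against 14.87, 13.02, 11.97, 14.97 and 14.69 in WT. It spanned 3.94 over the 9 arrays, the widest range of the 10 genes, and the KO arrays alone spanned 2.37. With that spread its difference of 0.78 (SE 0.74, limma adjusted p = 0.786) had a 95% confidence interval of -0.91 to 2.47, and it was -0.16 without WT replicates 2 and 3.

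Nr4a2, which encodes the related receptor Nurr1, had log2 signals of 11.85, 11.06, 10.90 and 10.56 in KO, against 11.16, 10.60, 10.30, 11.30 and 12.27 in WT. It followed the other genes less closely: WT replicate 3 was lowest, but KO replicate 4 lay 0.04 below WT replicate 2. The highest arrays were WT replicate 5 and KO replicate 1, those that correlated least with the rest. The difference was -0.034 (SE 0.41, limma adjusted p = 0.983) and 0.25 without WT replicate 5.

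Ier2, a small nuclear protein induced by growth factors, had log2 signals of 12.71, 13.61, 13.01 and 12.52 in KO, against 12.61, 11.60, 11.59, 12.42 and 11.93 in WT. Of the KO arrays 3 lay above every WT array, and KO replicate 4 lay below WT replicate 1. The means were 12.96 ± 0.48 over the KO mice (SD, n = 4) and 12.03 ± 0.47 over the WT mice (SD, n = 5). The difference was 0.93 (SE 0.29), which is 1.91-fold if the scale is log2, with a 95% confidence interval of 0.27 to 1.60. It did not pass (limma adjusted p = 0.786, unadjusted p = 0.0117, exact permutation p = 0.0317). It was 0.64 without WT replicates 2 and 3 (limma adjusted p = 0.756, unadjusted p = 0.0701).

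Ier3, also called IEX-1, is an NF-kappaB and stress target that modulates ERK signalling and apoptosis. Its log2 signals were 6.28, 6.47, 5.89 and 5.87 in KO, against 5.75, 5.37, 4.92, 5.75 and 5.57 in WT. Every KO array lay above every WT array, by 0.12 between the nearest arrays, and Ier3 was the 1 gene of the 10 of which that held. The same held for 205 of 30142 genes (0.68%). The means were 6.13 ± 0.30 over the KO mice (SD, n = 4) and 5.47 ± 0.35 over the WT mice (SD, n = 5). The difference was 0.66 (SE 0.20), 1.58-fold if the scale is log2, with a 95% confidence interval of 0.19 to 1.12, and did not pass (limma adjusted p = 0.786, unadjusted p = 0.0109). The exact permutation p was 0.00794, the smallest that 126 assignments allow. Without WT replicates 2 and 3 the difference was 0.44 (limma adjusted p = 0.756, unadjusted p = 0.0368). The gene was dim: WT replicate 3 was below its array's background of 5.35, and the other arrays were 0.08 to 1.14 above theirs. In the 2 KO arrays with the highest Ier3 signal, the 10 genes of mature neutrophils lay 1.65 and 1.47 above their mean over the 9 arrays. The other KO arrays were at -0.53 and -0.19, and the WT arrays at -0.91 to 0.22. The mean log2 signal of that list ran from 5.73 to 7.91 in KO and from 5.35 to 6.48 in WT, and its members Lcn2, Mmp8, Mmp9 and Retnlg were below background. Its part in the Ier3 difference was not tested. In bulk RNA, more cells of a type and more RNA per cell cannot be told apart.

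Dusp1, the nuclear phosphatase MKP-1 that switches off p38 and JNK, had log2 signals of 16.31, 17.28, 17.35 and 17.43 in KO, against 17.46, 16.76, 16.59, 17.30 and 17.01 in WT. Its lowest array was KO replicate 1, followed by WT replicates 3 and 2, and the other 3 KO arrays lay within 0.15 of each other. The difference was 0.069 (SE 0.27, limma adjusted p = 0.941), and 0.33 without KO replicate 1.

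Dusp2, also called PAC-1, an ERK and p38 phosphatase of blood cells, had log2 signals of 10.26, 10.91, 10.49 and 10.85 in KO, against 10.79, 9.55, 9.17, 10.57 and 10.52 in WT. WT replicates 2 and 3 lay at least 0.71 below the other 7 arrays, which covered only 10.26 to 10.91. The difference was 0.51 (SE 0.35, limma adjusted p = 0.786), and 0.00083 without these 2 arrays.

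Zfp36 encodes tristetraprolin, which binds AU-rich elements of inflammatory mRNAs and speeds their decay. Its log2 signals were 14.00, 14.58, 14.48 and 14.29 in KO, against 14.56, 13.51, 13.54, 14.27 and 14.05 in WT. The 7 arrays above WT replicates 2 and 3 mixed both genotypes. The difference was 0.35 (SE 0.24, limma adjusted p = 0.786), and 0.044 without these 2 arrays.

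Across the 10 genes the mean was higher in KO for 9 and lower for 1, with a median difference of 0.42. Among the 16151 genes above background 54.5% had a higher mean in KO, and their median difference was 0.018. Without WT replicates 2 and 3 the members split into 5 higher and 5 lower. An adjusted p under 0.05 was reached by 0 of the 10, against 0.00332% of all genes, which is Abi1 alone. At an unadjusted p under 0.05 there were 2, Ier2 and Ier3, both higher in KO, against 3.82% of all genes that were higher in KO at that level. Over all genes 1150 were higher and 359 lower, but 838 and 801 after quantile normalization and 772 and 690 with arrays centred on their median. The SD was larger in WT than in KO for 8 of the 10, where this held for 47.2% of genes above background. Standard errors were wide, with a median of 0.32 for the 10 genes against 0.12 for genes above background. Leaving out WT replicates 2 and 3 brought Egr1, Dusp2 and Zfp36 to differences between 0.00083 and 0.076, turned Egr2, Egr3, Nr4a1 and Dusp1 to lower means in KO, and left Ier2 and Ier3 with higher ones. Nr4a2, lower in KO by its mean with all arrays, then differed by -0.48. Removing samples that were noticed for their low values shrinks such differences by construction.

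**Figure D2:**
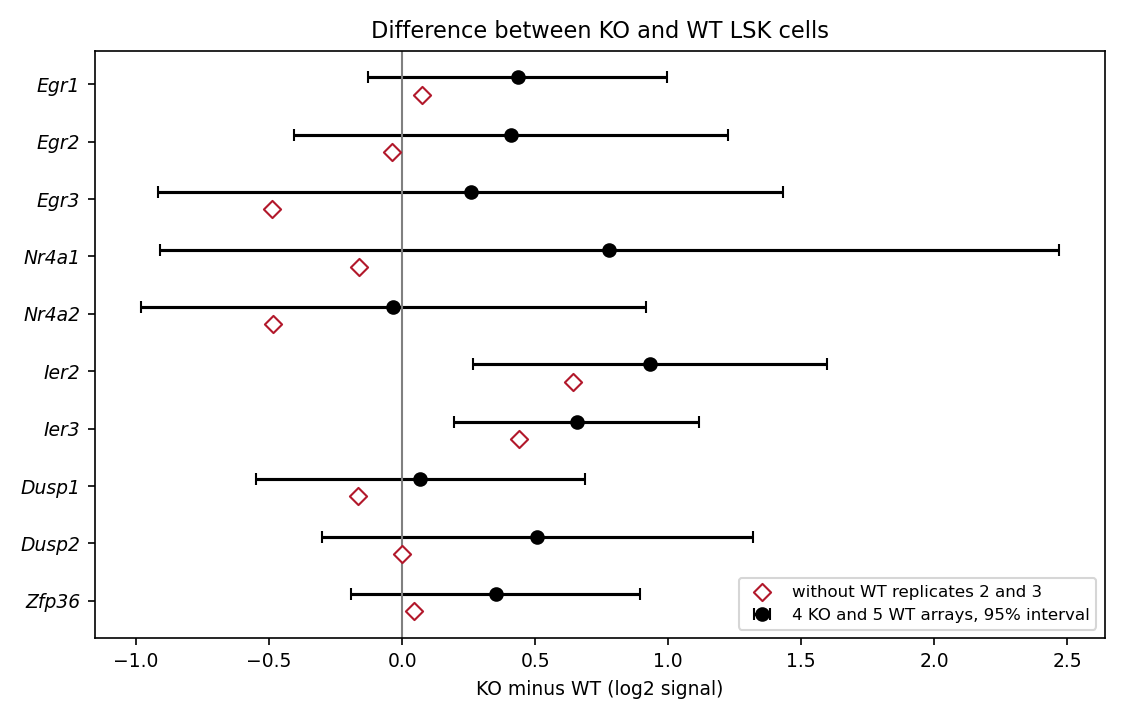
Difference in mean log2 signal, KO minus WT (horizontal axis), for each early response gene. Black points with bars are limma estimates from 4 KO and 5 WT arrays with 95% confidence intervals, and open diamonds are the estimates without WT replicates 2 and 3. The intervals of Ier2 and Ier3 alone lie above 0, without adjustment for the number of genes, and without those 2 arrays these are the 2 largest positive differences.

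Co-variation across arrays was then measured for the 45 pairs of members. Over all 9 arrays 44 pairs had a positive Pearson r, with a median of 0.76, and 25 pairs passed an exact two-sided permutation of pairings at an adjusted p of 0.05 over the 45. Pairs of other genes were not counted in this way, so these counts are not shown to be particular to the members. By Spearman's rho, with a median of 0.59, 1 pair passed, Ier2 with Ier3 (rho = 0.95, exact permutation adjusted p = 0.0114). On deviations from the group means the median r was 0.76 as well. Because WT replicates 2 and 3 form a separate low cluster, the pooled r rests largely on them. Leaving out arrays noticed for low values in these genes lowers r by construction. A lower r therefore does not show that the remaining arrays lack co-variation. In the other 7 arrays the median r was 0.28, 32 pairs were positive and 0 passed after adjustment, with 3 at an unadjusted p under 0.05. Those 3 pairs were Ier2 with Ier3 (r = 0.84, exact permutation p = 0.0135, adjusted p = 0.304), Dusp1 with Zfp36 (r = 0.76, exact permutation p = 0.0131, adjusted p = 0.304) and Dusp1 with Dusp2 (r = 0.78, exact permutation p = 0.0232, adjusted p = 0.348). Leaving out, for each pair, the 2 arrays farthest from the median of its first gene gave a median r of 0.41. For 31 of the 45 pairs these were WT replicates 2 and 3 again, so it is not a separate check. Without KO replicate 1 and WT replicate 5, which correlated least with the other arrays, all 45 pairs were positive, with r from 0.62 to 0.97 and a median of 0.89. Over all 9 arrays Nr4a2 and Dusp1 had the lowest median r with their 9 partners, 0.40 and 0.45.

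**Figure D3:**
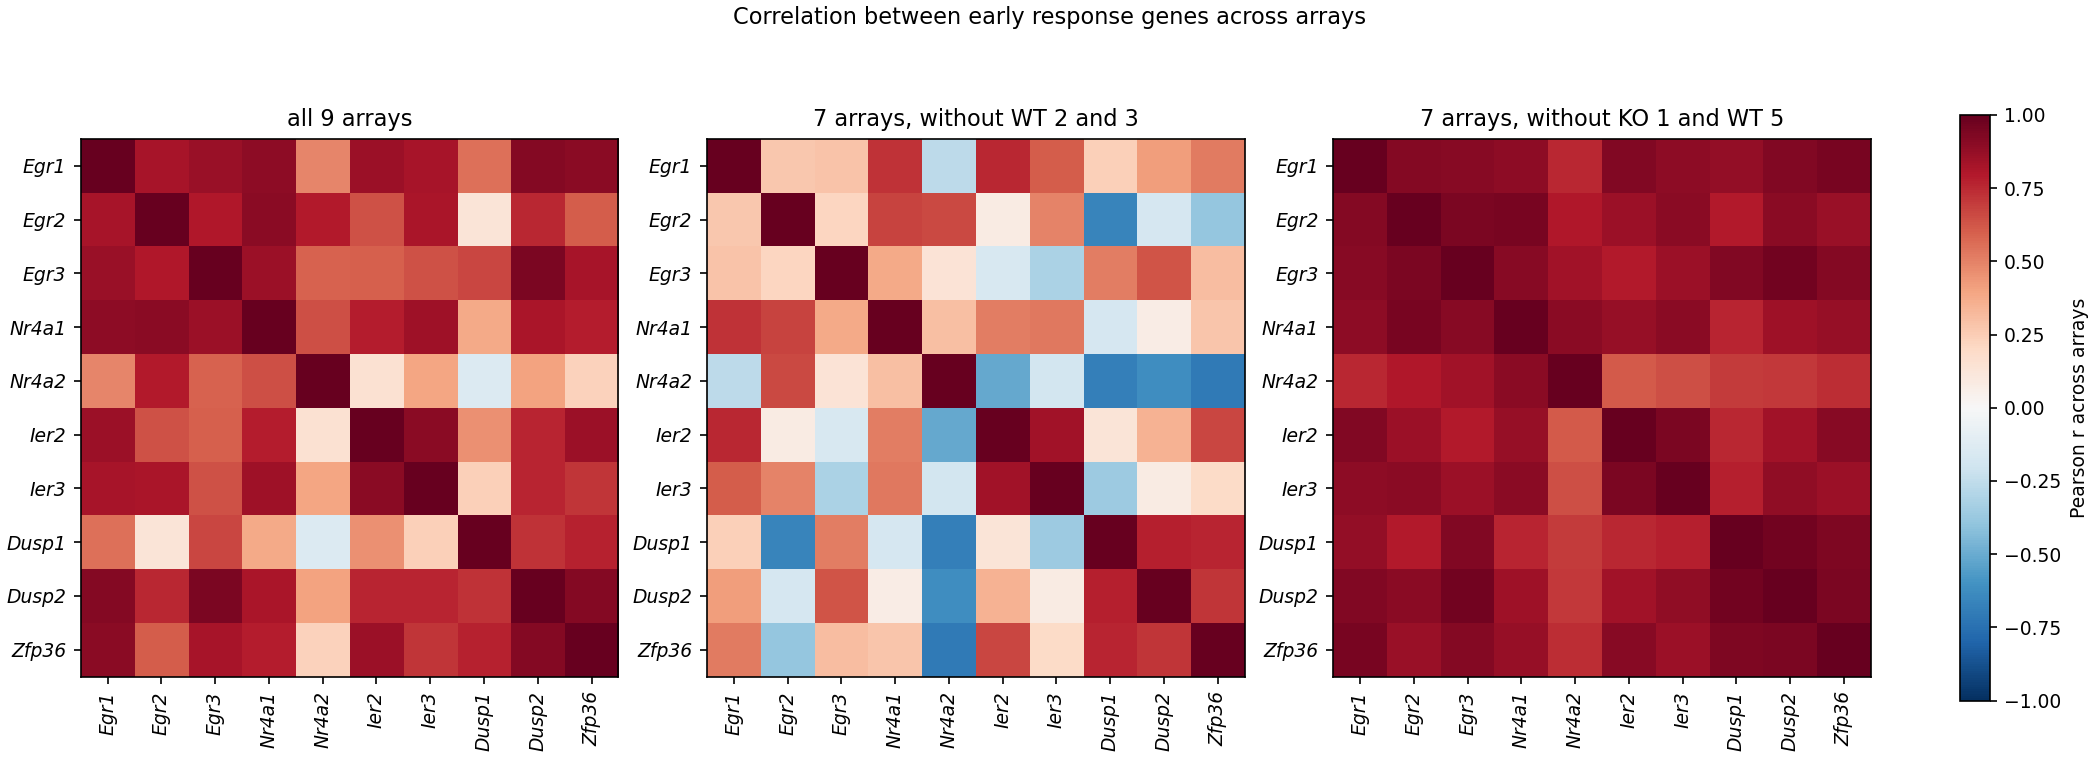
Pearson r between the 10 early response genes across arrays (colour, from -1 to 1), over all 9 arrays, over 7 without WT replicates 2 and 3, and over 7 without KO replicate 1 and WT replicate 5. Nearly all cells are red in the left panel, the middle panel is mixed with a median of 0.28, and the right panel is uniformly red with a median of 0.89.

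Genes whose pattern was most like the mean deviation of the 10 members over the 9 arrays were ranked by Pearson r among genes above background. The first 10 were Nfkbiz (r = 0.97), Ywhaz, Kdm6b, Smad7, Phc2, Fos, Bhlhe40, Atf3, Trib1 and Csrnp1 (r = 0.95). Of these 10, 6 are in the list of other early response genes, namely Nfkbiz, an inducible nuclear IkappaB protein, Fos, Bhlhe40, Atf3, Trib1 and Csrnp1. The r does not measure the size of a change: Ywhaz covered only 11.83 to 11.98 and Phc2 only 7.64 to 7.87, where each member spanned 1.07 or more. Fos, the AP-1 subunit, had log2 signals of 14.69, 15.03, 14.85 and 14.80 in KO, against 14.73, 13.73, 13.71, 14.72 and 14.65 in WT, and was the gene most like Egr1 (r = 0.98). Early response genes were also most like Dusp2 (Atf3, r = 0.98), Egr3 (Fosb, r = 0.97) and Ier3 (Klf10, r = 0.97). The genes most like the remaining members were Map3k8 for Egr2, Mef2d for Nr4a1, Luc7l2 for Nr4a2, Rnf19b for Ier2, Slc9a3r1 for Dusp1 and Sqstm1 for Zfp36, with r of 0.94 to 0.97. The likeness is over 9 arrays with 2 low ones and is a description.

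The same low arrays appeared in the other early response genes. Of 45 listed genes 43 were measured, 39 of them above background, and WT replicates 2 and 3 were the lowest arrays for 31, against 2.93% of genes above background. Their mean deviation was 0.15, 0.40, 0.17 and 0.18 in KO, against 0.27, -0.64, -0.71, 0.12 and 0.056 in WT. In KO 38 had higher and 5 lower means, where 54.5% of genes above background had a higher mean in KO. An adjusted p of 0.05 was passed by 0, and 8 had an unadjusted p under 0.05, all higher in KO, beside 3.82% of all genes. Jund, an AP-1 subunit, had log2 signals of 7.05, 7.52, 6.82 and 6.88 in KO, against 6.62, 6.19, 6.24, 6.72 and 6.47 in WT, a difference of 0.62 (SE 0.17, limma adjusted p = 0.786). Klf6, a Krüppel-like zinc finger factor, had 14.90, 15.31, 14.80 and 14.52 in KO, against 14.62, 12.94, 13.08, 14.29 and 13.60 in WT, and differed by 1.18 (SE 0.37, limma adjusted p = 0.786). Nr4a3, the third NR4A receptor, was 6.82, 6.67, 6.21 and 6.06 in KO, against 6.50, 5.28, 5.47, 6.23 and 6.34 in WT, with WT replicates 2 and 3 lowest as for Nr4a1. Egr4, the remaining EGR gene, was 6.36 to 6.50 in KO and 6.21 to 6.46 in WT, also with WT replicates 2 and 3 lowest but over a narrow range.

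The mRNAs of the kinases and factors that act upstream deviated less in WT replicates 2 and 3 than the early response genes did. For 14 measured genes of the ERK cascade, of 21 listed, the mean deviation was 0.055 in WT replicate 2 and -0.071 in WT replicate 3. It was -0.11 in KO replicate 1 and -0.033 to 0.067 in the other arrays. WT replicates 2 and 3 were lowest for 1 of the 14 genes, beside 2.93% of genes above background. In KO 4 had higher and 10 lower means, and the RAF kinase gene Araf differed by -0.36 (SE 0.14, limma adjusted p = 0.786). For 17 SRF and CREB regulators of 19 listed, the mean deviation was -0.020 and -0.15 in WT replicates 2 and 3. It was -0.31 in KO replicate 1, the array that correlated least with the others, and 0.0058 to 0.15 in the remaining arrays. Nab2, which encodes a repressor that binds EGR proteins and is itself an EGR target, was 8.08 to 8.18 in KO, against 7.36 in WT replicate 3 and 8.12 to 8.53 in the rest of WT. The p38 and JNK list deviated by -0.0010 and -0.040, with 14 of 16 genes measured, and Map2k4 differed by -0.13 (SE 0.056, limma adjusted p = 0.786). Protein phosphorylation, through which these cascades act, is not seen on an array.

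For 10 further MAP kinase phosphatase genes the mean deviation was -0.16 and -0.29 in WT replicates 2 and 3, the lowest of the 9 arrays, with -0.11 to 0.26 in the others. WT replicates 2 and 3 were both lowest for 1 of these 10 genes, beside 2.93% of genes above background. It was Dusp5, an ERK phosphatase of the nucleus. Dusp5 had log2 signals of 11.21, 11.64, 10.54 and 10.53 in KO, against 10.68, 9.92, 9.97, 11.28 and 10.91 in WT. Dusp6, the cytoplasmic ERK phosphatase, was 13.94 to 15.23 in KO and 13.19 to 15.33 in WT, lowest in WT replicate 3. In this list 8 genes had higher and 2 lower means in KO, beside 54.5% of genes above background that were higher, and 0 had an unadjusted p under 0.05.

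Of 17 inflammatory mRNAs known to be bound by ZFP36, 15 had higher and 2 had lower means in KO, beside 54.5% of genes above background that were higher. The median difference was 0.37, and 12 of the 17 lay above background. An unadjusted p under 0.05 was reached by 5, all higher, beside the 3.82% of all genes, and 0 passed after adjustment by limma. The list's mean deviation was 0.44, 0.32, 0.042 and 0.082 in KO, against 0.088, -0.42, -0.42, -0.16 and 0.028 in WT, lowest in WT replicates 2 and 3. The neutrophil chemokine gene Cxcl2 had log2 signals of 10.55, 9.92, 9.47 and 9.00 in KO, against 9.21, 7.31, 7.31, 8.05 and 9.02 in WT, a difference of 1.56 (SE 0.50, limma adjusted p = 0.786). Il23a, below background, differed by 0.37 (SE 0.12, limma adjusted p = 0.786). WT replicates 2 and 3 were the lowest arrays for 5 of the 17, beside 2.93% of genes above background. Zfp36 itself was low in the same 2 arrays.

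In the heat shock genes, the other group known from dissociated cells, WT replicates 2 and 3 were not the 2 lowest arrays by list mean. For the 10 measured of 13 listed, the mean deviation was -0.18, 0.21, -0.21 and 0.57 in KO, against 0.045, -0.26, -0.057, -0.32 and 0.20 in WT. WT replicates 2 and 3 were lowest for 1 of the 10, beside 2.93% of genes above background, and KO replicate 4 was the highest array by list mean. Hspa1a had the largest SD of the list in both groups and weighs heavily in these means. Its log2 signals were 9.12, 11.54, 7.52 and 12.81 in KO, against 9.82, 7.82, 9.64, 7.82 and 12.44 in WT. Bag3, a co-chaperone gene, differed by 0.17 (SE 0.059, limma adjusted p = 0.786).

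**Figure D4:**
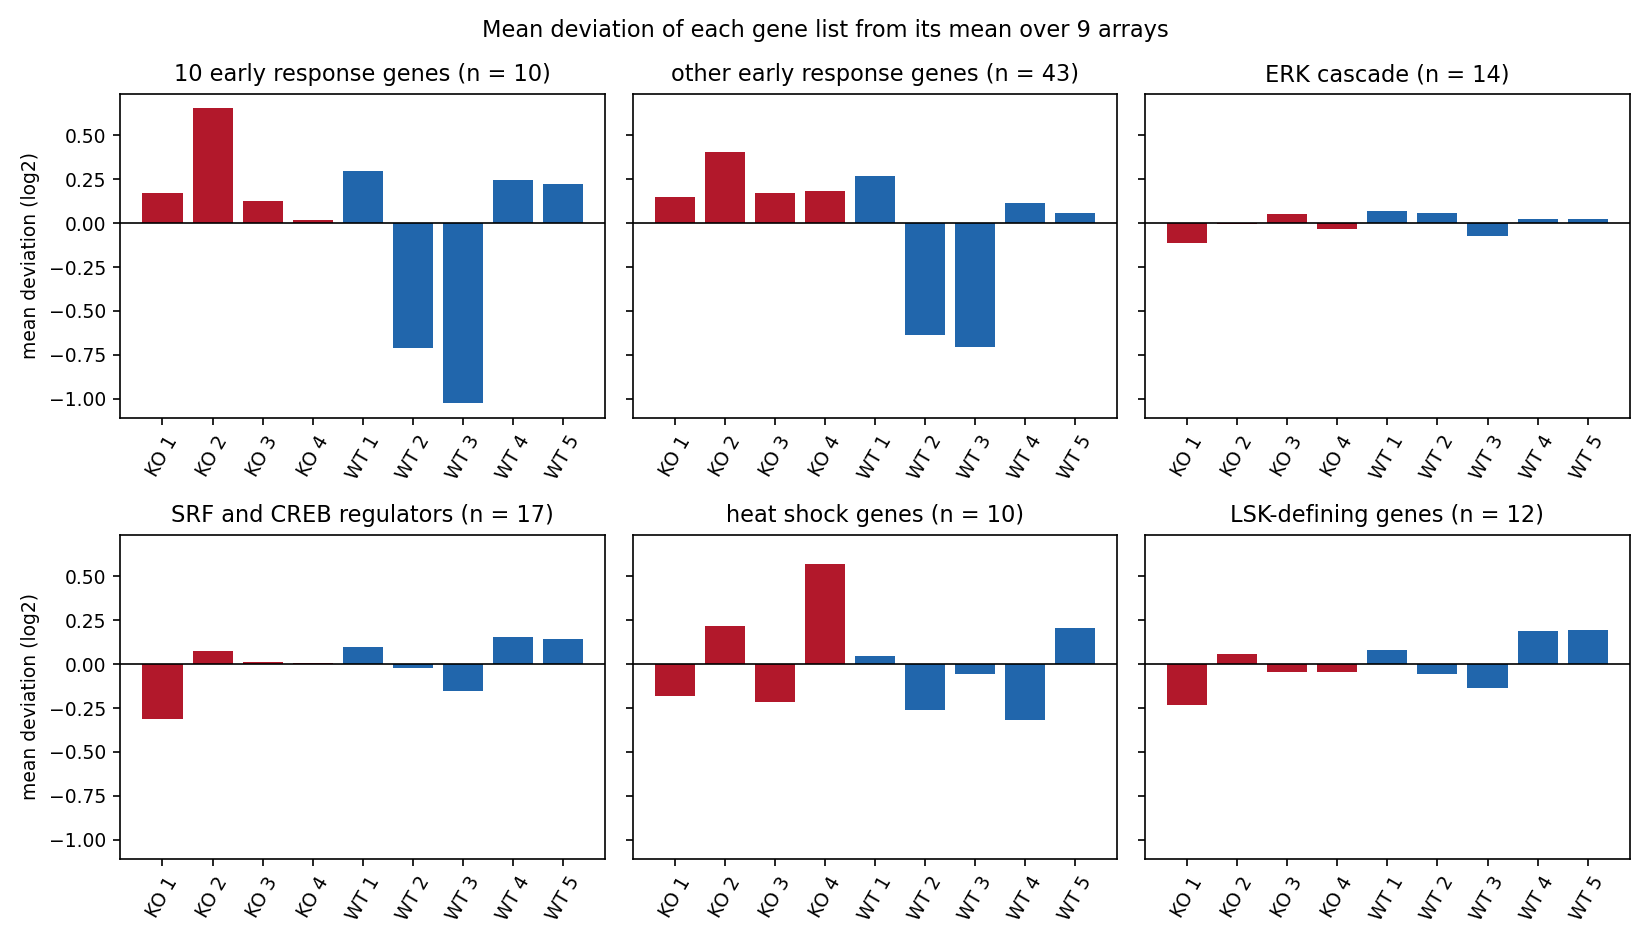
Mean deviation in log2 signal of 6 gene lists from their own mean over 9 arrays (vertical axes, shared), for 4 KO (red) and 5 WT (blue) arrays, with the number of measured genes in each title. The early response lists are low in WT replicates 2 and 3, at -0.71 and -1.02 for the 10 genes. The SRF and CREB list (-0.020 and -0.15) and the LSK list (-0.059 and -0.14) are low there by less, and both are lowest in KO replicate 1. In the ERK list WT replicate 2 is at 0.055, and in the heat shock list WT replicate 4 is lowest.

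Marker lists were set beside the low arrays. The LSK-defining genes deviated by -0.059 and -0.14 in WT replicates 2 and 3. They were at -0.24 in KO replicate 1 and at -0.046 to 0.19 in the remaining arrays. Kit was 14.75 and 14.39 in WT replicates 2 and 3, against 13.82 to 14.58 in KO and 14.70 to 14.78 in the other WT arrays. Among measured markers, WT replicates 2 and 3 were the lowest arrays for 1 LSK-defining gene, Runx1, and 1 B cell gene, Cd79a. They were lowest for 0 markers of mature neutrophils, monocytes, T and NK cells, erythroid cells, megakaryocytes, mast cells, and endothelium and stroma. The share was 2.93% of genes above background. The erythroid list, with 8 of 10 genes measured and Slc4a1 below background, deviated by 0.82 in WT replicate 2 and 0.51 in WT replicate 3. Elsewhere it was -0.43 to 0.62 in KO, and 0.48, -0.20 and -2.30 in WT replicates 1, 4 and 5. Its mean log2 signal ran from 8.76 to 9.82 in KO and from 6.90 to 10.01 in WT. The neutrophil list deviated by -0.45 and 0.22 in the 2 low arrays. The B cell list deviated by -0.32 and -0.23 there, its lowest values, against -0.19 to 0.29 elsewhere, with 9 of 10 genes measured and Ms4a1, Pax5, Vpreb3 and Igll1 below background. Its mean log2 signal ran from 6.23 to 6.54 in KO and from 5.94 to 6.53 in WT, and the part of these lists in the early response values was not tested. The labels give no sort day, handling time or freezing time, so these could not be set against the values.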

How the data were processed

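LSK cells of 4 KO and 5 WT mice were measured, 1 array per mouse, and groups and replicate numbers were taken from the sample titles. The deposited table of 72688 probesets holds 1 signal per probeset and array, read as log2 from its range and taken as already normalized by the authors. Partek 6.6 is named in the submitters' processing notes. How background was corrected, how arrays were scaled and which log base was used is not given in the sources used here.

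Probesets were named from the platform annotation, with 827 symbols updated through Entrez identifiers to RefSeq GRCm38.p6. Exactly 1 symbol was carried by 30604 probesets, several by 2146, and 39938, controls included, were not listed. KO and WT were compared over all 30142 genes by limma's lmFit and eBayes (version 3.58.1, R 4.3.3; two-sided, Benjamini-Hochberg), without covariate, and the fit was tested on simulated data. Single values were tested by exact two-sided permutation over 126 assignments, and correlations by exact permutation of pairings in Python 3.11.15. The number of arrays limits the precision, and no scanner files were used.

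The members and lists were chosen with earlier results of these data known. The text names the members, up to 2 genes per list and direction with the smallest unadjusted p under 0.05, the genes most like the members, Abi1 and Kit. Nr4a3, Egr4, Nab2, Dusp5, Dusp6 and Hspa1a were chosen after their values were seen. Alternatives were other scalings, fits and probeset rules, each array left out, and 2 pairs of arrays left out.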

Additional observations from a re-analysis of the deposited data

Results flagged for a closer look

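Dusp1 in KO replicate 1, at 16.31, stood apart from the other 3 KO arrays at 17.28 to 17.43, a gap of 0.97. The gap is 0.87 of the group's range, above the critical value of Dixon's test at the 95% level for 4 arrays. It is the 1 array flagged among 20 groups of values, and chance flags about 1 in 20. KO replicate 1 is also the array that correlated least with the others, at a median of 0.9858, and its part in the low Dusp1 signal was not tested.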

How the results depend on the processing

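The count of genes past the threshold was 1, Abi1, under every alternative run except array weights, which gave 2 with Igll1. Of 180 recomputed differences of the members over 18 alternatives, 165 kept their direction, 14 turned and 1 was exactly 0 (Nr4a2 without KO replicate 1 and WT replicate 5), and 0 passed an adjusted p of 0.05 by limma (the smallest was 0.665). Quantile normalization gave Dusp1 -0.018. Leaving out WT replicates 2 and 3 gave Egr2 -0.037, Egr3 -0.49, Nr4a1 -0.16 and Dusp1 -0.16. Leaving out 1 array gave -0.044 to 0.33 for Dusp1, -0.10 to 0.47 for Egr3 and -0.29 to 0.25 for Nr4a2. The replicate block, which drops WT replicate 5 from the comparison, gave Nr4a2 0.25 and kept the count of called genes at 1. The labels do not say whether equal replicate numbers mark KO and WT mice handled together. Deviations of same-numbered KO and WT arrays correlated at -0.18, 0.15, -0.014 and 0.27, and 2 of 4 KO arrays correlated best with their own number. So few arrays cannot decide whether the numbers mark pairs. By exact permutation 2 members had an unadjusted p under 0.05, and 1 with quantile normalization or arrays centred on their median, 0 without KO replicate 1 and WT replicate 5, and 0 without WT replicates 2 and 3, with 1 to 2 when 1 array was left out. Of the 45 pairs 25 passed, 0 without WT replicates 2 and 3, and 0 to 32 when 1 array was left out: 0 without WT replicate 2, 0 without WT replicate 3, 5 without KO replicate 2 and 22 or more otherwise. Over all genes, an unadjusted p under 0.05 was reached by 1150 higher in KO (682 to 1535 over the alternatives) and 359 lower (221 to 801). Centring moved the median difference of all genes to -0.024, against 0.034. The cause was not tested.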

Other observations

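Marker genes outside the early response set also differed at an unadjusted p under 0.05, none past the adjusted threshold of limma. The pre-B cell gene Igll1, below background, averaged 5.35 ± 0.15 over 4 KO mice and 4.68 ± 0.11 over 5 WT mice (SD, limma adjusted p = 0.438), and the B lineage factor gene Ebf1 5.83 ± 0.20 in KO and 5.34 ± 0.13 in WT. The mast cell protease genes Cma1 and Tpsb2 differed, KO minus WT, by 0.82 and 0.82, and the platelet gene Gp9 by 0.43 (limma adjusted p = 0.786 each). The neutrophil genes Mmp8, below background, and Cxcr2 differed by 0.27 and 0.25 (limma adjusted p = 0.786 each). The stem cell factor gene Hlf averaged 10.27 ± 0.42 over the KO mice and 10.92 ± 0.41 over the WT mice (SD), a difference of -0.65 (limma adjusted p = 0.786).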
